A study of Thermothelomyces thermophilus ATCC 42464 with 8 samples.

Results

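Small H3K9me3 peaks that sat in runs, away from the broad domains and the chromosome ends, were examined in the thermophilic fungus Myceliophthora thermophila. Members were chosen from the peak list of 1 library, WT replicate 2, by length and position alone. A member was shorter than 10000 bp and lay under 10000 bp from at least 1 other peak of the list. It also lay 10000 bp or more from every peak of 10000 bp or longer, and peaks within 100000 bp of a chromosome end were left out. The rule took 1799 of the 3329 peaks (54.0%). Runs of members less than 10000 bp apart are called clusters here, and there were 270 of them. The remaining peaks were 929 small peaks flanking a broad one, 289 broad peaks, 240 end peaks and 72 isolated small peaks.

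H3K9me3, the trimethylated lysine 9 of histone H3, is the mark of constitutive heterochromatin. In filamentous fungi it is known from repeat-rich, gene-poor DNA, centromeres and chromosome ends, and from some silent gene clusters for secondary metabolites. In Neurospora crassa the mark is laid down by the methyltransferase DIM-5 and is bound by the heterochromatin protein HP1. LaeA is a putative methyltransferase, known in Aspergillus as a regulator of secondary metabolite gene clusters.

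The study asked how loss of laeA affected H3K9 methylation. ChIP libraries came from mycelia of the wild type (WT) and of ΔlaeA, a null strain made from it in which a marker cassette took the place of laeA. Both strains were grown for 24 h at 45 °C in Vogel's salts with 2% glucose, and each had 2 ChIP replicates and 2 inputs, of which the inputs were not analysed here. ΔlaeA is 1 strain, and the labels do not say whether replicates were separate cultures. The sample labels give antibody ab8898 for WT and ab8902 for ΔlaeA while the study's methods name ab8898 only, and the series text names H3K79me3 where the titles, labels and methods name H3K9me3. Strain and labelled antibody therefore cannot be told apart.

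The lists differed in pileup scale and cut-off. The lowest local background under a peak, in units of the pileup, was 97.9 in WT replicate 2 and 95.8 in ΔlaeA replicate 2. It was 35.1 and 33.7 in the replicate 1 libraries of WT and ΔlaeA. The replicate 1 pileups were scaled, so these values do not give the depth of the libraries. The lowest −log10 q was 1.34 in WT replicate 2 and 2.12 in ΔlaeA replicate 2, whereas both replicate 1 lists went down to a −log10 p of 1.30 and a −log10 q of 0. A q under 0.05 was reached by 0 of the 5846 replicate 1 peaks of WT and by 4 of the 3054 of ΔlaeA. For ΔlaeA replicate 2, the list used here reached only position 3058073 of chromosome 1, or 7.89% of the genome. The strains could thus be set against each other over the whole genome with 1 library each, which allows no test, and every strain difference given here is a description of those libraries.

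The clusters ranged from a single member to 37, with a median of 4.5. Of the 270 clusters, 135 had 5 or more members and held 1479 members (82.2%), 61 had 10 or more and held 991 (55.1%), and 16 had 20 or more and held 421. In 26 clusters the only member owed its place to a flanking peak nearby. Spans ran from 259 to 128070 bp with a median of 14418 bp, and 30 clusters spanned 50 kb or more. Members per cluster and span rose together (Spearman rho 0.947 over 270 clusters), as both count the same peaks. In all, the spans took up 6.14 Mb, or 15.9% of the genome, and members took up 8.96%.

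**Figure D1:**
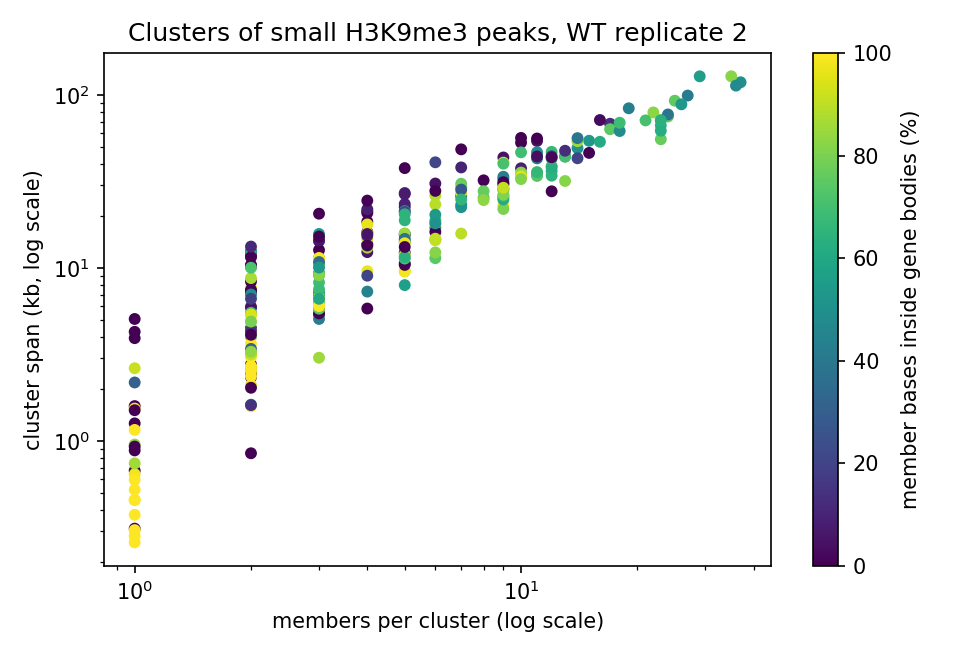
Members per cluster (log axis) against cluster span in kb (log axis) for the 270 clusters of WT replicate 2, 1 point per cluster, coloured by the percentage of member bases inside gene bodies. The largest clusters, of 20 members and more, spanned up to 128 kb, and points with under 10% of bases in genes occur among small clusters and up to 16 members.

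Members filled 56.3% of the span of the clusters with 2 or more members, and from 8.38% to 97.5% of single clusters. Of the 1529 gaps between neighbouring members, 746 (48.8%) were shorter than 1000 bp and 119 (7.78%) were 5000 bp or longer. The median gap was 1037 bp, with quartiles at 437 and 2175 bp. A typical cluster was therefore a string of peaks separated by about as much DNA as a peak itself, whose median length was 1252 bp. The nearest broad peak lay at a median of 40.03 kb and at most 510 kb away. Under 20 kb lay 400 members (22.2%), and 100 kb or more lay 321 (17.8%).

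The rule fixed these boundaries, so peaks on either side of them are given as values only. The longest member had 9906 bp and the shortest broad peak 10020 bp. The widest gap that still joined a member to a neighbour was 9900 bp, and the narrowest gap of an isolated peak was 11174 bp. The closest member to a broad peak was 10025 bp away, and the farthest flanking peak 9989 bp. The closest member to a chromosome end lay at 100287 bp, and the end peak farthest in lay at 99908 bp.

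All 7 chromosomes carried members, in uneven density. Chromosome 5 had the most per Mb, 74.2 (322 members in 37 clusters), and its cluster spans covered 24.8% of it. Chromosomes 7 and 1 had the fewest, at 29.9 per Mb (123 members) and 35.5 per Mb (388 members), with 10.6% and 12.3% of their length in spans. Chromosomes 4, 6, 3 and 2 lay between, at 58.2, 52.8, 51.2 and 39.4 per Mb. The median fold enrichment of members hardly moved across chromosomes, from 1.85 on chromosome 6 to 2.00 on chromosome 5. Gene content moved more. The share of member bases outside gene bodies was 41.7% on chromosome 5 and 73.0% on chromosome 7.

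Fold enrichment, the ratio of fragment pileup at the summit to the local background, was low at the members. It ran from 1.19 to 4.38 with a median of 1.94 and quartiles of 1.62 and 2.33. At least 2-fold were 807 members (44.9%), and at least 3-fold were 100 (5.56%). The median was 1.51 in isolated peaks, 2.164 in flanking peaks, 2.07 in end peaks and 3.28 in broad peaks of the same list. Their −log10 q had a median of 16.5 and ran from 1.36 to 132. Longer members were higher (Spearman rho 0.769 between length and fold over 1799 members of 1 library). These values come from the library that chose the members and are a description.

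Fold enrichment varied widely within clusters. Over the 135 clusters of 5 or more, the cluster means ran from 1.55 to 2.88 with an SD of 0.269, and the median SD among members of 1 cluster was 0.435. The outermost members had a median fold of 1.83 (n = 270) and a median length of 1110 bp, and the inner ones 1.97 (n = 1209) and 1279 bp. Members per cluster and mean fold rose together only weakly (Spearman rho 0.235 over 270 clusters), and not steadily. The median fold of members was 1.71 in clusters of 1, 1.86 in those of 2 or 3 and 1.93 in those of 4 to 6. It was 2.00 in clusters of 7 to 12 and 1.91 both in those of 13 to 22 and in those of 23 or more.

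Of the 1799 members, 977 (54.3%, 95% Wilson interval 52.0 to 56.6) shared at least 1 bp with a WT replicate 1 peak, against 60.4% of all peaks of the list. A ΔlaeA replicate 1 peak was shared by 554 (30.8%, 28.7 to 33.0), against 39.1% of all peaks. By the share of peaks touched, members lay under the list as a whole in both strains. Both replicate 1 lists had a peak at 457 members (25.4%, list 33.7%), WT alone at 520 (28.9%, list 26.7%), ΔlaeA alone at 97 (5.39%, list 5.41%) and neither at 725 (40.3%, list 34.2%). The intervals cover counting error over peaks only, and neighbouring peaks of a cluster are not independent.

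The other classes frame these shares. Isolated small peaks had a WT replicate 1 peak in 12.5% and a ΔlaeA replicate 1 peak in 5.56%. Flanking peaks had them in 62.8% and 41.2%, end peaks in 74.6% and 52.5%, and broad peaks in 91.0% and 81.7%. By the share of peaks touched, clustered peaks fell between isolated and flanking ones in both strains. Measured in bases, WT replicate 1 peaks covered 19.4% of member bases and ΔlaeA replicate 1 peaks 6.31%. Over all bases of the list they covered 14.7% and 5.58%, in broad peaks 9.28% and 3.81%, in flanking peaks 16.5% and 6.73%, and in end peaks 26.1% and 10.9%. By bases, members were therefore above the list as a whole in both strains.

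The WT replicate 1 list was itself longer, with 1.91 times as many peaks as the ΔlaeA list. The ratio of members overlapped was 1.76. It counts members, whereas the list ratio counts replicate 1 peaks, so it is not set against that ratio. Over all 3329 peaks of WT replicate 2, 2011 were overlapped by WT and 1303 by ΔlaeA replicate 1 peaks. By bases the ratio at members was 3.07 and that of the whole lists 2.52. When the WT list was shortened to the 3054 peaks of highest −log10 p, WT replicate 1 peaks lay at 39.97% of members, still above the 30.8% of ΔlaeA. At members with 50% or more of their bases in genes, the shares were 43.1% (list 46.3%) in WT and 28.3% (list 31.7%) in ΔlaeA. At the other members they were 35.3% (list 44.1%) and 34.4% (list 46.3%). Members thus lay below the list here too. How much of the strain difference came from the depth of the libraries, which is unknown, or from peak calling was not tested.

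Replicate 1 peaks at members were short and weak in both strains. In WT, 1669 of 5846 replicate 1 peaks (28.5%) lay at members. Their median length was 353 bp and their median fold 1.43, against 1.39 elsewhere. In ΔlaeA, 796 of 3054 (26.1%) lay at members. Their median length was 274 bp, and the median fold was 1.41 at members and elsewhere. None of these peaks at members had a q under 0.05 in either strain, and their highest −log10 q was 0.874 in WT and 1.19 in ΔlaeA. A further 309 WT and 243 ΔlaeA replicate 1 peaks lay in the gaps of the clusters. One member often held several short peaks, with 2 or more at 424 members in WT and at 159 in ΔlaeA. Summits did not coincide closely, as the nearest replicate 1 summit lay a median 538 bp away in WT and 590 bp in ΔlaeA. At the 457 members with a peak in both strains, the replicate 1 peaks of the strains touched each other in 385 (84.2%).

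Overlap went with the length of a member, and a longer peak offers more bases to be overlapped. Below 500 bp, 29.4% of 316 members had a WT and 12.97% a ΔlaeA replicate 1 peak. From 500 to under 1000 bp these shares were 42.5% and 20.1%, from 1000 to under 2000 bp 62.4% and 33.6%, and from 2000 to under 4000 bp 72.2% and 45.3%. From 4000 bp on, WT fell back to 65.9% of 232 members and ΔlaeA stood at 47.4%. At matched length, members and flanking peaks were within each other's intervals from 500 to under 4000 bp in WT. Flanking peaks were higher below 500 bp, at 51.3% (n = 119), and from 4000 bp on, at 76.2% (n = 231). In ΔlaeA the shares of flanking peaks were above those of members at each length, at 24.4%, 26.0%, 42.5%, 48.5% and 53.7% from the shortest to the longest. The intervals of members and flanking peaks did not overlap below 500 bp and overlapped at the other lengths. Isolated peaks below 500 bp had a WT replicate 1 peak in 6.52% (n = 46).

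**Figure D2:**
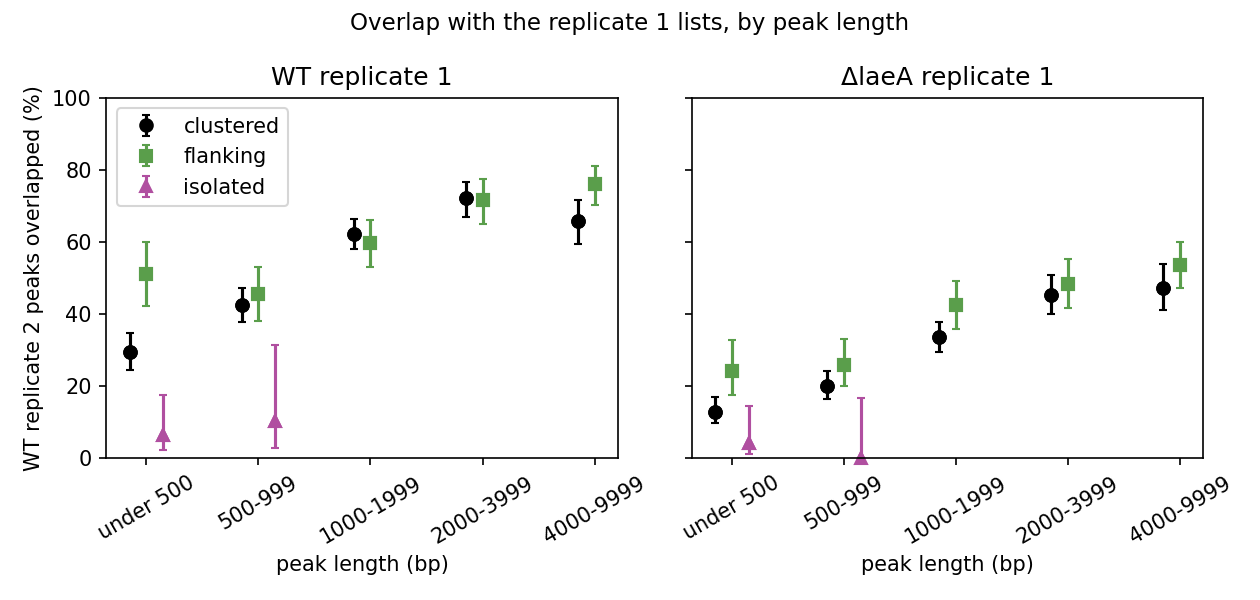
Percentage of WT replicate 2 peaks overlapped by a WT (left) or ΔlaeA (right) replicate 1 peak, by peak length in bp, for clustered, flanking and isolated small peaks, with 95% Wilson intervals as bars and bins of under 19 peaks left out. Clustered peaks climb from 29.4% to 72.2% in WT and from 12.97% to 47.4% in ΔlaeA, and isolated peaks stay at 10.5% or less.

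Overlap was also read by fold enrichment. From below 1.5-fold to between 2 and 2.5-fold, the share of members with a WT replicate 1 peak went from 35.3% (n = 266) through 52.2% (n = 726) to 66.0% (n = 521), and then down to 61.3% (n = 186) and, at 3-fold and above, to 46.0% (n = 100). The share with a ΔlaeA replicate 1 peak climbed throughout, at 10.2%, 26.7%, 38.6%, 45.2% and 48.0%. Flanking peaks showed no such fall, with 69.8% between 2.5 and 3-fold and 71.1% (n = 121) at 3-fold and above in WT, and 51.4% and 57.0% in ΔlaeA. These shares rest on lists of unequal length. Of the 100 members at 3-fold and above, 79 touched no gene. The same held for 298 of the 461 such peaks of the list and for 90 of the 121 flanking ones.

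By cluster size the shares did not climb evenly. WT and ΔlaeA replicate 1 peaks lay at 43.1% and 27.5% of members of clusters of 2 or 3, at 49.7% and 28.8% in clusters of 4 to 6, at 55.4% and 31.4% in clusters of 7 to 12, at 51.1% and 29.8% in clusters of 13 to 22, and at 66.1% and 34.4% in clusters of 23 or more. Counted by cluster, 209 of the 270 held a member with a WT replicate 1 peak, 185 one with a ΔlaeA peak, 169 both and 45 neither. Among the 135 clusters of 5 or more, WT replicate 1 marked more members in 103, both strains the same number in 26, and ΔlaeA more in 6. All 16 clusters of 20 or more had more WT-marked members, 52.4% to 77.3% of each cluster, against 14.3% to 47.8% for ΔlaeA. The WT list is the longer one, so a majority of such clusters goes with the list sizes given above.

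Members were then set against the 9097 protein-coding genes of the RefSeq annotation. A gene body was touched by 1228 members (68.3%), against 61.2% of all peaks of the list, and 586 members lay wholly inside genes. The members touched 1307 genes (14.4% of all), and the whole list touched 24.9%. Of those genes, 918 were covered over 50% or more of their length and 226 completely. By bases, 57.4% of member sequence lay outside gene bodies, against 77.3% in flanking, 95.8% in broad, 60.1% in end and 33.7% in isolated peaks. Clustered small peaks thus had more of their bases inside genes, 42.6%, than flanking, broad and end peaks, and slightly fewer than the genome, with 46.5%.

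The spans were not gene deserts. All spans together held 1590 genes, or 25.9 per 100 kb against 23.5 in the genome, and members touched all but 283 of them. Inside the spans, members had 42.6% of their bases in genes and the gaps 39.2%. Cluster by cluster the difference was clearer. Of the 135 clusters of 5 or more, members were more genic than the gaps in 95, less genic in 27 and equal in 13, each of which had no gene in its span. In 15 of the 16 clusters of 20 or more, members were the more genic part.

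**Figure D3:**
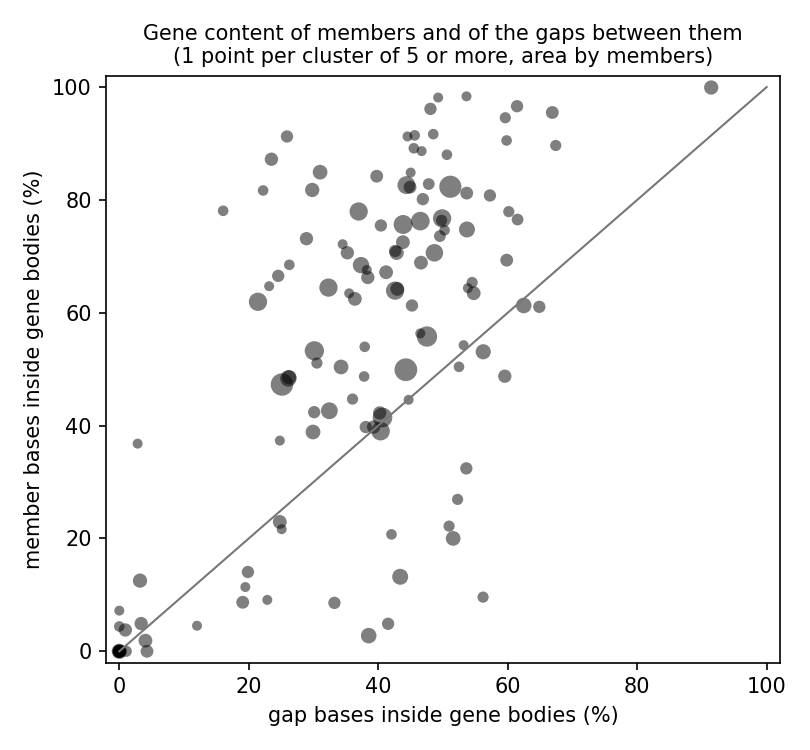
Percentage of gap bases (x axis) and of member bases (y axis) inside gene bodies, 1 point for each of the 135 clusters of 5 or more members, with the area growing with the number of members and the line marking equal shares. Points lie above the line in 95 clusters and below it in 27.

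The overlap with replicate 1 differed between groups of members by gene content, which also differed in length, and it did not rise or fall evenly. Of 571 members that touched no gene, 37.3% had a WT and 29.2% a ΔlaeA replicate 1 peak, against 51.1% and 39.8% of all gene-free peaks of the list. Of 152 members with some but under 50% of their bases in genes, 82.2% and 53.9% had one (list 85.8% and 67.8%). Of 490 members with 50% to under 100%, 78.2% and 41.2% had one (list 81.3% and 45.4%). Of 586 members wholly inside genes, 43.7% and 17.6% had one (list 44.3% and 19.7%). In WT the gene-free members fell farthest below the list, and the members wholly inside genes were close to it.

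**Figure D4:**
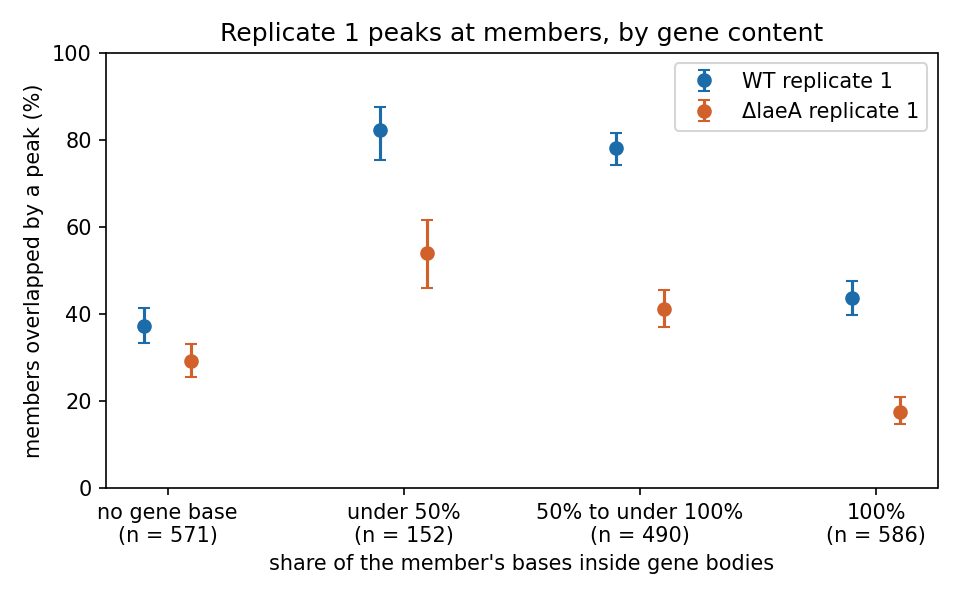
Percentage of members overlapped by a WT (blue) or ΔlaeA (orange) replicate 1 peak in 4 groups of members by the share of their bases inside gene bodies, with 95% Wilson intervals as bars. The strains are closest at gene-free members, 37.3% and 29.2%, and the WT share exceeds the ΔlaeA share in each group with the lists as deposited, an order that turns at gene-free members with lists of equal size.

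As the lists stood, the ratio of WT to ΔlaeA overlaps grew with gene content, from 1.28 at gene-free members through 1.52 and 1.90 to 2.49 at members wholly inside genes. With lists of equal size it was 0.91, 1.26, 1.495 and 1.57, so at gene-free members its direction turned. Split at 50% of bases in genes, the more genic members had 639 of 1076 (59.4%, list 61.6%) with WT and 305 (28.3%, list 31.7%) with ΔlaeA replicate 1 peaks, a ratio of 2.095. The less genic ones had 338 of 723 (46.7%, list 59.2%) and 249 (34.4%, list 46.3%), a ratio of 1.36. The same split over all peaks of the list gave 1.94 and 1.28, so this is not particular to clustered peaks. Within lengths, the ratio for the more and the less genic members was 2.67 and 1.55 below 1000 bp, 2.17 and 1.30 from 1000 to under 2000 bp, and 1.83 and 1.17 from 2000 to under 4000 bp. From 4000 bp on it was nearly equal with the lists as they stood, at 1.41 and 1.38. With lists of equal size the ratios from the shortest to the longest members were 1.61 and 1.20, 1.52 and 1.05, 1.51 and 0.88, and 1.375 and 0.97. At less genic members of 2000 bp and longer the direction therefore turned. The WT shares of the more and less genic members were close below 1000 bp, 37.1% and 36.1%, and far apart from 2000 to under 4000 bp, 90.9% and 45.9%.

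Fold enrichment in the choosing library ran the other way, with medians of 2.11, 2.07, 2.02 and 1.70 from gene-free members to those wholly inside genes, whose median lengths were 1464, 2056, 1649 and 800 bp. The local background had medians of 97.9, 101, 103 and 103 fragments in these groups. The first of these lies at the lowest background of the whole list, 97.9. The medians therefore cannot show whether the true background was alike. The 4 overlap patterns carried the same contrast. Members marked in WT replicate 1 alone had 42.8% of their bases outside genes, those marked in both strains 56.2%, those marked in neither 69.1% and those marked in ΔlaeA alone 73.8%.

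Grouped by gene content, the clusters of 5 or more with almost no member bases in genes stood apart. In 48 clusters 70% or more of member bases were in genes. Their mean fold was 1.88 ± 0.168 (SD over clusters), and WT replicate 1 peaks lay at 64.7% and ΔlaeA peaks at 30.3% of their 521 members. WT marked more members in 45 of these 48 and ΔlaeA in 0. In the 3 groups between 10% and 70%, WT replicate 1 peaks lay at 53.7%, 64.5% and 60.2% of members, and ΔlaeA peaks at 35.8%, 37.3% and 37.3%. In 28 clusters under 10% of member bases were in genes. Their mean fold was 2.34 ± 0.253, and only 25.2% and 17.0% of their 230 members had a WT or ΔlaeA replicate 1 peak. In 9 of these 28 no member had a replicate 1 peak of either strain, which occurred in 0 of the other clusters of 5 or more.

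The 5 clusters with the most members were also the 5 with the widest spans. The largest lay on chromosome 3 from 417791 to 536095, with 37 members over 118305 bp and a mean fold of 2.12 ± 0.506 (SD over members). WT replicate 1 marked 25 of its members and ΔlaeA 13, and it held 32 genes, of which 30 were touched. A cluster on chromosome 6 from 2833862 to 2947012 had 36 members, a mean fold of 1.82 ± 0.345, 23 members marked in WT and 11 in ΔlaeA. The widest, on chromosome 3 from 4544223 to 4672292, had 35 members over 128070 bp and a mean fold of 1.89 ± 0.424, with 23 marked in WT and 9 in ΔlaeA. It was also strongly genic, with 82.3% of member bases and 51.1% of gap bases inside its 45 genes. On chromosome 1, a cluster from 10627576 to 10755604 had 29 members (2.18 ± 0.700, 19 and 13 marked) and another from 5760217 to 5859327 had 27 (2.12 ± 0.559, 18 and 10 marked). All 5 had more members marked in WT replicate 1 than in ΔlaeA replicate 1.

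**Figure D5:**
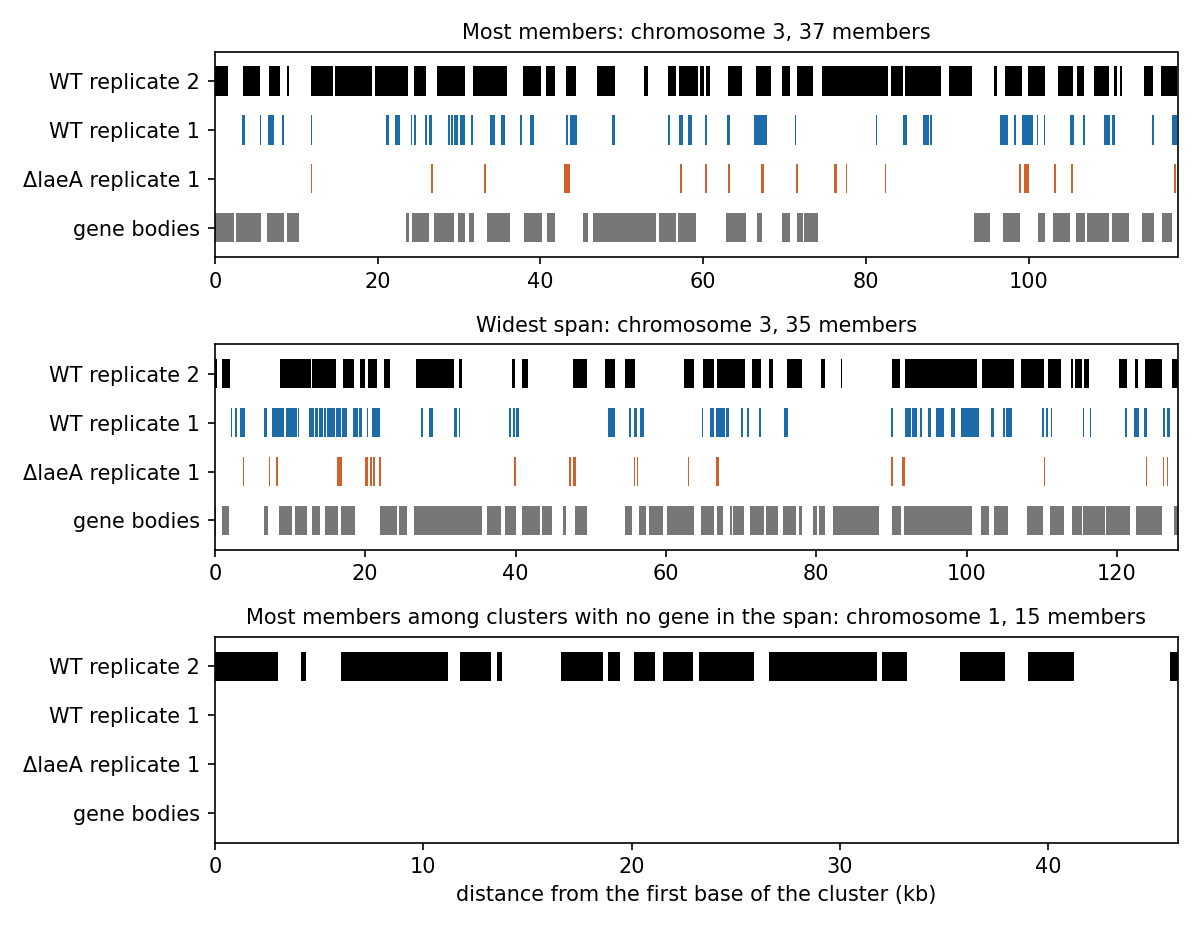
Maps of 3 clusters, with distance from the first base of the cluster in kb on the x axis and bars for WT replicate 2 peaks, WT replicate 1 peaks, ΔlaeA replicate 1 peaks and gene bodies, to scale. The cluster with the most members and the widest one carry short replicate 1 peaks of both strains along most of their length, and the cluster with no gene in its span carries none.

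Among the 28 clusters with under 10% of member bases in genes, the 3 with the most members differed in gene and replicate 1 content. A cluster on chromosome 1 from 10132778 to 10178982 had 15 members over 46205 bp, with a mean fold of 2.18 ± 0.823 and single members up to 3.87. It held 0 genes, and 0 replicate 1 peaks of either strain lay anywhere in its span. A cluster on chromosome 4 from 2930386 to 3001952 had 16 members with a mean fold of 2.40 ± 0.903 and a highest of 4.17. Its span held 9 genes, of which members touched 5. Here 2.78% of member bases but 38.5% of gap bases were in genes, and 6 members were marked in WT and 5 in ΔlaeA. On chromosome 7 from 270110 to 313680, 12 members with a mean fold of 2.07 ± 0.791 had a replicate 1 peak in neither strain, and the 1 gene of the span was touched. These 3 clusters were chosen after their values were seen.

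The clusters of highest mean fold were small. The first was a group of 3 members on chromosome 1 from 10201721 to 10222295 with a mean of 3.56, followed by a pair on chromosome 6 from 837224 to 848752 with 3.53. The next were a single member on chromosome 4 from 2808621 to 2812890 with 3.41, a pair on chromosome 1 from 7920302 to 7932743 with 3.37, and a single member on chromosome 1 from 419474 to 424539 with 3.29. None of these 5 touched a gene. WT replicate 1 marked a member in 1 of them, and ΔlaeA in 2.

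Of the 10 members of highest fold enrichment, 9 touched no gene and 6 had a replicate 1 peak in neither strain. The highest, on chromosome 1 from 10706568 to 10714198, had a fold of 4.38 in WT replicate 2. The strongest peak there had a fold of 1.61 in WT replicate 1 and of 1.73 in ΔlaeA replicate 1. A member on chromosome 2 from 166587 to 176027, at 4.34, and 1 on chromosome 4 from 3481533 to 3486743, at 4.23, had no peak in either replicate 1 list. A member on chromosome 3 from 2730790 to 2739411, at 4.23, had a WT replicate 1 peak of 1.36 and no ΔlaeA peak. One on chromosome 5 from 3739014 to 3746406, at 4.21, had peaks of 1.39 and 1.41. The member on chromosome 3 from 4269504 to 4276838, at 4.09, had 1.41 and 1.38 and was the one that touched a gene. Peaks of WT replicate 2 with almost the same fold thus differed in whether the replicate 1 lists held a peak there.

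Gene descriptions were held for 17 genes touched in the named clusters. Of these, 13 had a WT replicate 1 peak at a member that touched them and 4 a ΔlaeA replicate 1 peak. WT alone marked 10 of the 17, both strains 3, ΔlaeA alone 1 and neither 3. Of all 1307 genes touched by members, 68.8% and 37.5% had such a peak, and with 17 genes no difference from these shares is read. The widest cluster, on chromosome 3, held 3 genes described as cytochromes P450, haem enzymes that oxidise small molecules. They were MYCTH_2060315, at a member of fold 2.14 with 5 WT replicate 1 peaks, MYCTH_2060065, at 2.299 with 3, and MYCTH_2061987, at 2.56 with 1, and none of these members had a ΔlaeA replicate 1 peak. The same cluster held MYCTH_115501, with a phosphopantetheine attachment site, the carrier domain typical of polyketide and peptide synthetases. It was touched by members of fold 1.60 and 1.45, with 2 and 1 WT replicate 1 peaks and no ΔlaeA peak. Its subtilisin-type peptidase gene MYCTH_2060437 lay at a member of 2.00 with 3 WT and 1 ΔlaeA peaks.

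The largest cluster held an O-methyltransferase gene, MYCTH_2062247, at a member of fold 2.44 with 4 WT and 0 ΔlaeA replicate 1 peaks. It also held MYCTH_2061855, a papain-like peptidase gene, at 2.29 with 1 and 0. The chromosome 1 cluster of 27 members held 2 genes for carbohydrate-active enzymes. MYCTH_114497, described as a β-galactosidase or glucuronidase, lay at a member of 2.46 with 2 WT and 1 ΔlaeA peaks. MYCTH_110651, of the family now known as lytic polysaccharide monooxygenases, which cut cellulose by oxidation, lay at 1.80 with 1 and 0. The cluster of 29 members held a major facilitator transporter gene, MYCTH_109499, at 1.90 with 2 and 0, and MYCTH_2087100, for SAICAR synthetase of purine synthesis, at 1.72 with 0 and 1. The last was the only described gene marked in ΔlaeA replicate 1 and not in WT replicate 1.

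Some long genes were touched by several members, 89 genes by 2 or more and 9 by 3 or more. MYCTH_2313501 on chromosome 1, 41976 bp long, carried 9 members of fold 1.48 to 2.09 over 24.8% of its length, of which 5 had a WT and 3 a ΔlaeA replicate 1 peak. MYCTH_94652 on chromosome 4 carried 7 with no replicate 1 peak in either strain. MYCTH_105482 on chromosome 6, a carrier-domain gene as above, carried 4 over 76.9% of its length, with 2 marked in each strain. MYCTH_108317 on chromosome 4, of the same description, carried 4 of fold 1.27 to 1.80, with none marked in either. These 4 genes were named after their values were seen.

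The genes of the study that were looked up first lay outside the clusters. No member touched laeA, the catabolite repressor gene cre-1, the regulator genes grf-1, grf-2 and grf-3, or the gluconeogenesis genes pck and fbp, and none of these lay in a cluster span. The closest was pck, 940 bp from a member on chromosome 4 from 2917716 to 2919013. That member had a fold of 1.82, belonged to a pair and had a replicate 1 peak in neither strain. The next was grf-2, 4867 bp from a member of fold 1.78 in a cluster of 11, again with no replicate 1 peak. The other 5 lay 61210 to 157503 bp from the nearest member. Over all 9097 genes, members touched 14.4% and cluster spans held 17.5%. With so few genes of the study, their absence is not read as a difference from these shares. The gene laeB (MYCTH_2295350), a LaeA-like methyltransferase gene that the study also deleted, was added afterwards. It was touched by 1 member over 66.7% of its length. Further genes named in the study were not gone through.

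On the first part of chromosome 1, where the ΔlaeA replicate 2 list could be read, 108 members were available. Of these, 90 (83.3%, 95% Wilson interval 75.2 to 89.2) had a ΔlaeA replicate 2 peak, against 84% of the 200 peaks of the list there, and such peaks covered 79.2% of member bases. The replicate 1 lists marked 58 of the 108 (53.7%, list 53.5%) in WT and 22 (20.4%, list 29%) in ΔlaeA. Most members without a ΔlaeA replicate 1 peak had one in ΔlaeA replicate 2, namely 68 of 86. Of the 49 members with no replicate 1 peak in either strain, 36 had a ΔlaeA replicate 2 peak. These 2 counts were not made for the other peaks. All 4 lists shared 21 of the 108 members, against 13 of 56 flanking, 9 of 21 broad, 2 of 7 end and 0 of 8 isolated peaks there. On this stretch the ΔlaeA library of the same replicate number marked the most of these WT replicate 2 members, the other WT library fewer and the other ΔlaeA library the fewest.

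The 18 members there without a ΔlaeA replicate 2 peak were low and short, with a median fold of 1.48 and a median length of 533 bp, against 2.02 and 1449 bp for the other 90. Of the 18, 5 had a WT replicate 1 peak and so were present in both WT lists and absent from both ΔlaeA lists. The same held for 2 of 56 flanking peaks there and for 0 of the 8 isolated, 21 broad and 7 end peaks. The 5 members lay from 957840 to 958417 (fold 1.75), 962393 to 963124 (1.48), 2472315 to 2472818 (1.67), 2525769 to 2526630 (1.34) and 2542128 to 2542431 (1.30). By gene content, 55 of 69 members with 50% or more of their bases in genes had a ΔlaeA replicate 2 peak (79.7%, list 75.3%). Of the other members, 35 of 39 had one (89.7%, list 92.2%). Both shares were near those of the list.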

How the data were processed

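H3K9me3 ChIP-seq peak lists of WT and ΔlaeA mycelium, 2 libraries per strain, were used, grouped by the sample labels. According to the submitters' processing notes the authors used Trimmomatic 0.36, Bowtie2 2.3.4.3, MACS2 2.1.2 and ChIPseeker 2.16.0, and peaks were called per library. The pileup deposited by the authors is a coverage signal read at each summit. Their fold enrichment, also deposited, is a ratio of pileup to local background. The −log10 transformed p-values and q-values were deposited as the caller gave them. No list names a genome build. Depth in reads is unknown, as no read totals entered the work. Replicate 1 pileups were scaled (0% whole numbers, 100% in replicate 2).

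Entries of a peak were joined in replicate 1 (10000 entries into 5846 WT peaks, 4132 into 3054 ΔlaeA peaks). Peaks were set against each other by an overlap of at least 1 bp, in Python 3.11.15 with pandas 2.3.3, numpy 2.4.6 and scipy 1.17.1 (figures: matplotlib 3.10.9), and the code was tested on simulated data. Genes were the RefSeq table of assembly ASM22609v1. Peak edges lay within 100 bp of a gene boundary in 13.9% without a shift and in 9.20% to 13.5% at shifts of 50 to 2000 bp. Wilson intervals are at 95% and cover counting error only.

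The members and lists were chosen with earlier results of these data known. The named clusters were the 5 with most members, widest span and highest mean fold, and the named members the 10 of highest fold. The named genes were those with a held description in named clusters and 7 genes of the study. The gene laeB was added afterwards. Functional classes of genes could not be run, since the gene table has no product names and the held descriptions cover 16.5% of the genes touched. Alternatives were other cluster gaps, broad lengths, end lengths, thresholds, overlaps and gene flanks.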

Additional observations from a re-analysis of the deposited data

How the results depend on the processing

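Of 84 alternative values for 15 results, 57 stayed within their limits, 26 moved and 1 reversed. The last was the ratio of WT to ΔlaeA overlaps at gene-free members, 1.28 as reported and 0.91 with equal numbers of top peaks. At members wholly inside genes the same alternative moved it from 2.49 to 1.57. For these, where the construction does not show it, the cause was not tested. The cluster gap was changed together with the distance required from broad peaks. At 5000 bp there were 2056 members in 420 clusters. At 20 kb there were 1421 members in 155 clusters, with a median fold of 1.90 and 51.8% overlap with WT replicate 1. Calling peaks broad from 5000 bp left 1111 members with a median fold of 1.83 and 33.7% of bases outside genes. From 20 kb the median fold was 2.02, the overlaps 57.9% (WT) and 36.0% (ΔlaeA), and 72.3% of bases lay outside genes. At a −log10 q of at least 5 the median fold was 2.01 and the overlaps 57.4% and 33.8%. The WT and ΔlaeA overlaps were 41.6% and 20.3% at 200 bp (list 49.3% and 27.8%), 48.3% and 26.0% at 50% of the shorter peak (list 55.5% and 34.9%), and 39.5% and 20.01% for replicate 1 peaks with a −log10 p of at least 2. With equal numbers of top peaks WT stood at 39.97%, beside the list shares by gene content given above. With 500 or 1000 bp on either side of the genes, 48.9% or 44.0% of bases lay outside. Leaving out a replicate 1 list in turn gave 554 to 977 members in place of 1074 for a peak in at least 1 list and of 457 for both. The alternatives for these ratios were chosen after seeing the data. Split at 50% of bases in genes, the ratio ran from 1.52 to 2.55 for the more genic and 1.02 to 1.51 for the less genic members.

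No paired analysis was possible because no result comes from a test, and the ΔlaeA replicate 2 list was used only in part. The replicate block, strains set against each other within replicate 1, is the comparison already reported, 54.3% and 30.8%, and so is no check. The ΔlaeA overlap with equal numbers of top peaks likewise uses the whole ΔlaeA list. These alternatives could not change, yet they are counted among the 57 that stayed within their limits.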
